A study of Mus musculus with 2 samples.

Results

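Perforin and the granzymes are the killing proteins stored in the granules of cytotoxic lymphocytes, and 10 of their genes were followed by name: *Prf1*, *Gzma*, *Gzmb*, *Gzmc*, *Gzmd*, *Gzme*, *Gzmf*, *Gzmg*, *Gzmk* and *Gzmm*. They are 10 of the 32285 genes counted in each library, and all 10 were found. The rule that names them uses no measured value, but they were chosen with earlier results of these data known. Their unique molecular identifiers (UMIs, each standing for 1 captured transcript) were summed in 3 gates of cell barcodes: CD8 T (a UMI of *Cd3e* and of *Cd8b1*), CD4 T (*Cd3e* and *Cd4*, no *Cd8b1*) and NK (*Ncr1*, no *Cd3e*), the last of which can also hold other innate lymphoid cells.

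The study describes the cells as splenocytes of C57BL/6 mice aged 6 to 12 weeks, taken on day 8 of an infection. The virus was LCMV-cl13 (1000000 PFU), a lymphocytic choriomeningitis virus that mice do not clear quickly. PEP-WT mice carried the normal *Ptpn22* gene, which encodes the phosphatase PEP, and PEP-619WW mice carried 2 copies of an allele, made with CRISPR/Cas9, in which arginine at position 619 is replaced by tryptophan. By the same description, all mice of both genotypes were infected. The spleens of 4 to 5 mice per genotype were pooled and sorted for live CD45+ cells before droplet sequencing. Each genotype was deposited as 2 runs of 1 library each, called run 1 and run 2 here. The sources used here do not give how the runs relate, so they were kept apart and not taken as replicates. The barcode numbers in the study's methods are those of run 2. With 1 library per genotype and run no test of the genotypes was possible: intervals are at 95% and cover counting error only, and a gene was called higher or lower when its UMIs per 1000000 UMIs of the gate (CPM) differed by at least 1.5-fold with at least 100 UMIs in both libraries together.

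A cytotoxic lymphocyte releases its granules toward a target cell, where perforin polymerizes into pores in the membrane and lets granzymes, which are serine proteases, reach the cytosol. Granzyme B cleaves after aspartate and activates caspases, granzymes A and K are tryptases, and granzyme M cleaves after methionine or leucine. Granzymes C to G lie beside granzyme B in the mouse genome and are known from strongly stimulated T and NK cells.

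The libraries of run 1 held 14821 PEP-WT and 8576 PEP-619WW barcodes, with 77916082 and 56745578 UMIs. Run 2 held 9539 and 11029 barcodes, with 70500076 and 55504449 UMIs. The labels of both samples name liver, the Jurkat line and tumor-infiltrating cells, against the spleen of the protocols. The 4 hepatocyte markers summed to at most 2 UMIs in any library. At least 3 of 6 melanocyte genes were found in 256 PEP-WT and 27 PEP-619WW barcodes of run 2, and in 0 barcodes of run 1. Any 2 libraries shared 19 to 49 barcode sequences. The B class (*Cd79a*) held 56.6% and 52.1% of run 1 barcodes in PEP-WT and PEP-619WW, and 0.105% and 6.85% in run 2. Whether the cells of run 2 came from the spleen was not tested. The PEP-WT library of run 2 stood apart, with *Lyz2* or *Csf1r* placing 92.1% of its barcodes in the myeloid class and only 28, 11 and 2 barcodes in the CD8 T, CD4 T and NK gates. The genotypes were therefore set against each other in run 1 only, where the gates held 1439 and 953 CD8 T, 304 and 216 CD4 T, and 77 and 37 NK barcodes of PEP-WT and PEP-619WW.

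Markers are given for the CD8 T and NK gates of run 1, and none for the CD4 T gate. The T cell gene *Cd3d* was found in 97.8% (PEP-WT) and 97.4% (PEP-619WW) of CD8 T barcodes. *Cd8a* was found in 79.2% of those of PEP-WT. *Klrk1* was found in 83.1% and 91.9% of NK barcodes. It was also found in 46.2% of PEP-WT CD8 T barcodes, so it does not set the NK gate apart. The other NK genes listed were *Klrb1c*, *Klre1*, *Klra8*, *Tyrobp* and *Eomes*. They were found in 5.07%, 7.44%, 0.417%, 23.2% and 23.0% of PEP-WT CD8 T barcodes, and their shares of NK barcodes are not given here. Transcripts of other cells were present too: a UMI of *Cd79a*, *Cd79b*, *Ms4a1*, *Jchain*, *Lyz2* or *Csf1r* (B, plasma and myeloid genes) was found in 60.9% (PEP-WT) and 70.2% (PEP-619WW) of CD8 T barcodes, and in 46.8% and 48.6% of NK barcodes. The neutrophil gene *S100a9* was found in 21.1% and 45.2% of CD8 T barcodes, at 1014 and 718 CPM, so that its share and its level went opposite ways. The plasma cell gene *Jchain* was found in 29.7% and 49.8% of them, and the hemoglobin gene *Hbb-bs* in 50.8% and 18.8%. No barcode was removed as a doublet.

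The 10 genes lie at 4 places on 3 chromosomes (GENCODE gene bounds, GRCm38). *Prf1* (ENSMUSG00000037202, chr10:61297833-61304680, plus strand) and *Gzmm* (ENSMUSG00000054206, chr10:79689020-79695261, plus strand) stand apart on chromosome 10. *Gzma* (ENSMUSG00000023132, chr13:113093825-113100981) and *Gzmk* (ENSMUSG00000042385, chr13:113171608-113225908) are both on the minus strand of chromosome 13. *Gzmb* (ENSMUSG00000015437, chr14:56258838-56262260), *Gzmc* (ENSMUSG00000079186, chr14:56231441-56234656), *Gzmd* (ENSMUSG00000059256, chr14:56129556-56132608), *Gzme* (ENSMUSG00000022156, chr14:56117626-56120625), *Gzmf* (ENSMUSG00000015441, chr14:56205263-56211417) and *Gzmg* (ENSMUSG00000040284, chr14:56156582-56159579) are on the minus strand of chromosome 14, in a stretch of 145 kb that also holds *Gzmn* and 0 protein-coding genes of other kinds.

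The stretches just before the transcription start of the 4 most counted members are shown because their UMIs carry most of the results, and those of *Gzmc* and *Gzmd* because they show how alike the cluster genes are. The sequences are from RefSeq (GRCm38.p6), read 5′ to 3′ on the strand of the gene and ending at the base before the start. Capitals mark letters that match 1 of 3 searched motifs on either strand: TGTGGT (RUNX factors), GGTGTGA (T-box factors such as T-bet and Eomes) and TGANTCA (AP-1 factors). None of the 3 motifs overlaps another in these stretches.
Prf1, chr10:61297686-61297835, plus strand: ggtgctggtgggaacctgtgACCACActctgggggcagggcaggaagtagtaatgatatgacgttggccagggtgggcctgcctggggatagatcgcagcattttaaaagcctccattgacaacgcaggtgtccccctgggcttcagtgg
Gzma, chr13:113100982-113101131, minus strand: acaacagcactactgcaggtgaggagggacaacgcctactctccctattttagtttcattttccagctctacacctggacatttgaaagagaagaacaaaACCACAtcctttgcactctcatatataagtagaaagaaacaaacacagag
Gzmk, chr13:113180966-113181115, minus strand: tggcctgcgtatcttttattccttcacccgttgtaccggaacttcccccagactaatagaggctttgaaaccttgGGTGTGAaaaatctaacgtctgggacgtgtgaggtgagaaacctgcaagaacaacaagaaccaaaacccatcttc
Gzmb, chr14:56262335-56262484, minus strand: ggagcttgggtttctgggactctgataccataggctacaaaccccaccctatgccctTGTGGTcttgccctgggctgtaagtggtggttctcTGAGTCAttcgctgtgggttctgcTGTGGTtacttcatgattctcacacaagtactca
Gzmc, chr14:56234658-56234857, minus strand: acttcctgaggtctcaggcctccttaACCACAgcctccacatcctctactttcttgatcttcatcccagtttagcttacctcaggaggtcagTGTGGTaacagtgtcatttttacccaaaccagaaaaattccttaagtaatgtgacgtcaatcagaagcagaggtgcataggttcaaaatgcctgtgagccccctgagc
Gzmd, chr14:56132594-56132793, minus strand: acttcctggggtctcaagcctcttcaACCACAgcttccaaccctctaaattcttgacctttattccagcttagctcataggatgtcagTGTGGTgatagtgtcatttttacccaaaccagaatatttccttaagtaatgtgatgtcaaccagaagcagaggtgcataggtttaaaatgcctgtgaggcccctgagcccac

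All 10 members were matched in the promoter table. In the 250 bases before the start, the RUNX letters were present in 9 of the 10 members, all but *Gzmk*, against 14.05% of the 32851 promoters in the table. *Gzmk* held the T-box letters, 75 to 69 bases before its start, which 3.33% of all promoters hold. The RefSeq start of *Gzmk* lies inside its GENCODE bounds, far from their upstream end. That of *Gzmb* lies outside its GENCODE bounds, upstream of them. The matches of both genes hold for the RefSeq start, and no other was searched. *Gzmb* held the AP-1 letters, 58 to 52 bases before its start, which 6.75% of all promoters hold. A match is a run of letters and not a measured binding site. The promoters of *Gzmc* to *Gzmg* were 85.6% to 95.6% identical to each other, with *Gzmd* and *Gzme* the most alike, and the RUNX letters stood in 2 places in each of these 5. Being so alike, these 5 promoters are not separate cases in the count of 9 of 10. The transcripts of these 5 genes were 79.9% to 94.8% identical. Since reads of this assay come from the 3′ end, stretches of 90 bases in the last 500 bases of each transcript were compared: all 411 stretches were found in no other granzyme, except in *Gzmd* and *Gzme*, which shared 7 with each other. UMIs of *Gzmd* and *Gzme* are therefore less certain than those of the other members.

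In run 1 most UMIs of the members lay in the CD8 T gate, and *Gzma* was the member with the largest part in NK barcodes. Of the *Gzmb* UMIs, 80.2% in the PEP-WT and 86.1% in the PEP-619WW library lay in CD8 T barcodes. *Prf1* had 71.4% and 78.9% there, *Gzmk* 76.3% and 82.1%, and *Gzmm* 67.1% and 77.6%. *Gzma* had 55.9% and 52.5% there, and 21.8% and 27.9% in the 77 and 37 NK barcodes. The cluster genes also lay mostly in the gate, but in few barcodes. All 27 and 25 *Gzmd* UMIs and all 9 and 28 *Gzme* UMIs lay there, each gene in 2 PEP-WT and 1 PEP-619WW barcodes. *Gzmf* had 95.9% and 98.99% of its UMIs there, and *Gzmc* 86.5% and 98.7%. *Gzmg* had no UMI in either library of run 1.

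In the CD8 T gate of run 1, *Gzma* was lower in PEP-619WW by CPM over all gated barcodes, and *Gzmb* and *Prf1* were within 1.5-fold. By unthinned barcodes *Gzmb* differed more: at least 10 of its UMIs were found in 30.5% (PEP-WT) and 48.4% (PEP-619WW). The PEP-619WW barcodes were also deeper, at a median of 8660 against 6038 UMIs, and the part of depth in these shares was not tested. Of the 10 members, 7 had at least 100 UMIs, of which 1 was at least 1.5-fold higher in PEP-619WW (*Gzmc*), 2 were lower (*Gzma* and *Gzmm*) and 4 were within 1.5-fold. For comparison, 2.81% of the 9692 genes with at least 100 UMIs were higher and 3.28% lower. The median log2 ratio of PEP-619WW over PEP-WT was -0.24 over the 7 members and -0.00 over all 9692 genes. In bulk sums of a gate, fewer cells with a transcript and less transcript per cell cannot be told apart, so levels, shares of barcodes and UMIs per barcode are given for each.

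*Prf1* gave 2083 UMIs in PEP-WT and 1933 in PEP-619WW CD8 T barcodes, or 150.1 CPM (144 to 157) and 154 CPM (147 to 161). Its log2 ratio was 0.04 (-0.06 to 0.13), within counting error. It was found in 48.5% (PEP-WT) and 67.2% (PEP-619WW) of the barcodes, but the median depth was 6038 and 8660 UMIs, and with every barcode thinned to 2000 UMIs the shares were 23.5% and 28.7%. In B barcodes, which should lack it, *Prf1* was found in 1.35% (median depth 2700.5 UMIs) and 3.0% (3284 UMIs), and in myeloid barcodes in 2.45% (3479 UMIs) and 2.13% (2516 UMIs).

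*Gzma*, the granule tryptase, gave 10510 UMIs in PEP-WT and 4645 in PEP-619WW CD8 T barcodes, or 758 CPM (743 to 772) and 369.7 CPM (359 to 380.4). The log2 ratio was -1.04 (-1.09 to -0.99), a 2.05-fold lower level in PEP-619WW. The difference was not the same in barcodes with and without transcripts of other cells. Among the 562 PEP-WT and 284 PEP-619WW CD8 T barcodes with no UMI of the 6 B, plasma and myeloid genes named above, *Gzma* was at 1163 and 920.2 CPM, a log2 ratio of -0.34 (-0.41 to -0.26) that did not reach the fold. Among the 877 and 669 barcodes with such a UMI it was at 634 and 246 CPM, a log2 ratio of -1.37 (-1.43 to -1.30). The barcodes without and with such a UMI also differed in median depth, at 4429 and 7800 UMIs in PEP-WT and 6537.5 and 9780 in PEP-619WW. With every barcode of the gate thinned to 2000 UMIs the log2 ratio of *Gzma* was -0.94, still past the fold. The part of these transcripts in the result, or of depth in this split, was not tested.

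The share of CD8 T barcodes with a *Gzma* UMI was 34.5% (32.1% to 37.1%) in PEP-WT and 30.7% (27.8% to 33.8%) in PEP-619WW, and 25.0% and 19.7% after thinning. In barcodes with no other-type UMI the order turned, to 31.3% and 35.2%. The background in B barcodes was 1.86% and 3.07%, and in myeloid barcodes 3.44% and 3.77%. Among barcodes with *Gzma*, the median was 9 UMIs in PEP-WT and 4 in PEP-619WW. At least 10 UMIs were found in 236 PEP-WT barcodes (16.4%, 14.5% to 18.4%) and 103 PEP-619WW barcodes (10.8%, 8.91% to 12.95%), and these held 92.4% and 88.7% of all *Gzma* UMIs of the gate. *Gzma* was thus a gene of a minority of CD8 T barcodes with many UMIs each. Over all gated barcodes that minority was smaller in the PEP-619WW library. The share with at least 10 UMIs is not given for barcodes with no other-type UMI.

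*Gzmk*, the other tryptase, gave 1043 and 760 UMIs, or 75.2 and 60.5 CPM, a log2 ratio of -0.31 (-0.45 to -0.18) within the fold. It was spread unlike *Gzma*: the median was 1 UMI in barcodes that had it, and the highest barcode held 9 UMIs in PEP-WT and 12 in PEP-619WW. It was found in 35.9% and 42.3% of barcodes, and in 14.8% and 16.2% after thinning, against 0.513% and 0.739% of B barcodes. *Gzmm*, the granzyme that cleaves after methionine or leucine, was a low gene with 171 and 97 UMIs, or 12.3 and 7.72 CPM, and a log2 ratio of -0.68 (-1.05 to -0.31). In barcodes with no other-type UMI it had fewer than 100 UMIs and a log2 ratio of -0.15.

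*Gzmb*, whose protease cleaves after aspartate, was the most counted member of the gate. It gave 13962 UMIs in PEP-WT and 15156 in PEP-619WW, or 1006 CPM (989.7 to 1023) and 1206 CPM (1187 to 1225). The log2 ratio was 0.26 (0.23 to 0.29), above counting error and within the fold. It was found in more PEP-619WW barcodes: 66.2% (63.6% to 68.6%) and 86.7% (84.3% to 88.8%), and 55.4% and 71.9% after thinning. At least 10 *Gzmb* UMIs were found in 439 PEP-WT barcodes (30.5%) and 461 PEP-619WW barcodes (48.4%), a cut on unthinned counts that deeper barcodes pass more easily. Thinned to 2000 UMIs the log2 ratio was 0.49, within the fold. In barcodes with no other-type UMI the log2 ratio was 0.51 (0.45 to 0.57). The B barcodes held *Gzmb* in 2.34% and 7.03%, or 1.86% and 3.78% after thinning. By share of barcodes the background of *Gzmb* was thus also higher in the PEP-619WW library. The *Gzmb* UMIs of B barcodes numbered 710 among 41777498 UMIs in PEP-WT and 526 among 29713928 in PEP-619WW.

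**Figure D1:**
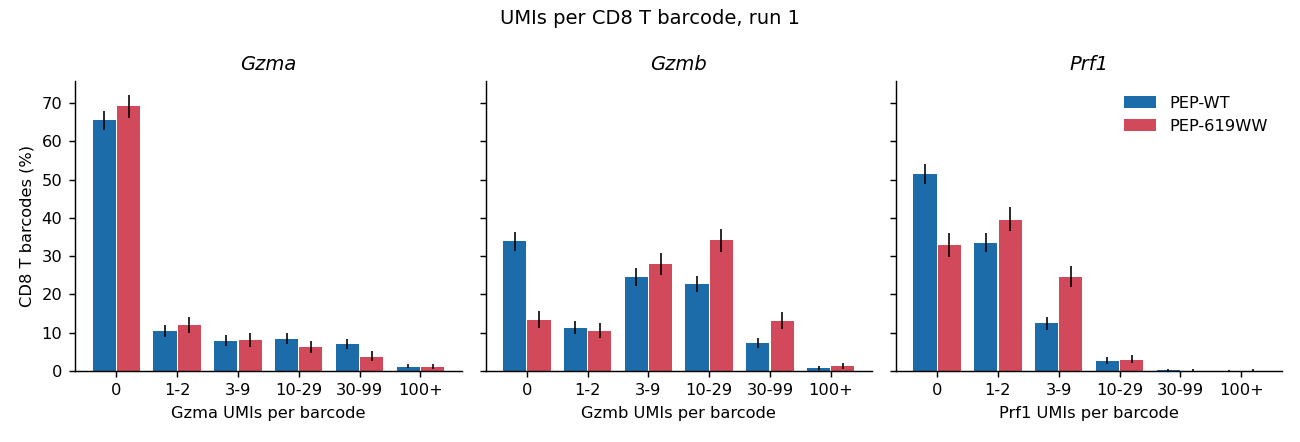
Percent of CD8 T barcodes of run 1 (vertical axis) by the number of *Gzma*, *Gzmb* or *Prf1* UMIs in the barcode (horizontal axis), for 1439 PEP-WT (blue) and 953 PEP-619WW (red) barcodes, with exact binomial 95% intervals as bars. More PEP-WT barcodes hold 10 or more *Gzma* UMIs (16.4% and 10.8%), and more PEP-619WW barcodes hold 10 or more *Gzmb* UMIs (30.5% and 48.4%). Counts are not thinned, and the PEP-619WW barcodes are deeper (median 8660 against 6038 UMIs).

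The cluster genes *Gzmc* to *Gzmg* were carried by very few CD8 T barcodes. *Gzmc* gave 192 UMIs in 34 PEP-WT barcodes and 461 UMIs in 15 PEP-619WW barcodes, or 13.8 and 36.7 CPM, a log2 ratio of 1.41 (1.16 to 1.66). In PEP-619WW, 433 of the 461 UMIs (93.9%) came from 1 barcode, and without the top barcode of each library the log2 ratio was -2.40. It was -2.68 without barcodes of 10 or more UMIs of the metallothionein gene *Mt2*. The higher *Gzmc* level of the PEP-619WW library is thus the value of 1 barcode. *Gzmf* gave 256 and 197 UMIs, of which the top barcodes held 90 and 152, and a log2 ratio of -0.24 (-0.51 to 0.04). That ratio was -1.74 without the top barcode of each library, -2.81 without the *Mt2* barcodes, -0.94 after thinning and 0.36 in barcodes with no other-type UMI.

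Barcodes with at least 10 UMIs of *Gzmc* to *Gzmg* in sum numbered 10 of 1439 in PEP-WT (0.695%, 0.334% to 1.27%) and 3 of 953 in PEP-619WW (0.315%, 0.0650% to 0.917%). These barcodes held 85.1% of the 484 and 93.1% of the 711 UMIs of the 5 genes in the gate. More than 1 of the 5 genes was found in 9 of the 10 and in 2 of the 3. All 13 also held *Gzmb* and *Prf1*, and *Mki67*, a gene of cycling cells, was found in 9 of 10 and 3 of 3. *Gzma* was found in 6 of 10 and in 1 of 3. They were also the deeper barcodes: their median was 21091 UMIs against 5973 in the other PEP-WT barcodes, and 44190 against 8649.5 in PEP-619WW. Scaled to depth, *Gzmb* was at 3755 CPM in these barcodes against 949 CPM in the others of PEP-WT, and at 3692 against 1184 CPM in PEP-619WW. Other-type UMIs were found in 5 of the 10 and 2 of the 3.

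The cluster genes came in different mixtures from barcode to barcode. The top PEP-619WW barcode, with 44190 UMIs in all, held 433 *Gzmc*, 152 *Gzmf*, 28 *Gzme*, 25 *Gzmd*, 215 *Gzmb*, 24 *Prf1* and 1 *Gzma* UMIs. The top PEP-WT barcode, with 21077 UMIs in all, held 90 *Gzmf*, 25 *Gzmd*, 16 *Gzmc*, 8 *Gzme*, 30 *Gzmb*, 46 *Prf1* and no *Gzma* UMIs. Another PEP-WT barcode held 138 *Gzma* and 115 *Gzmb* UMIs beside 13 *Gzmf* and 4 *Gzmc* UMIs.

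**Figure D2:**
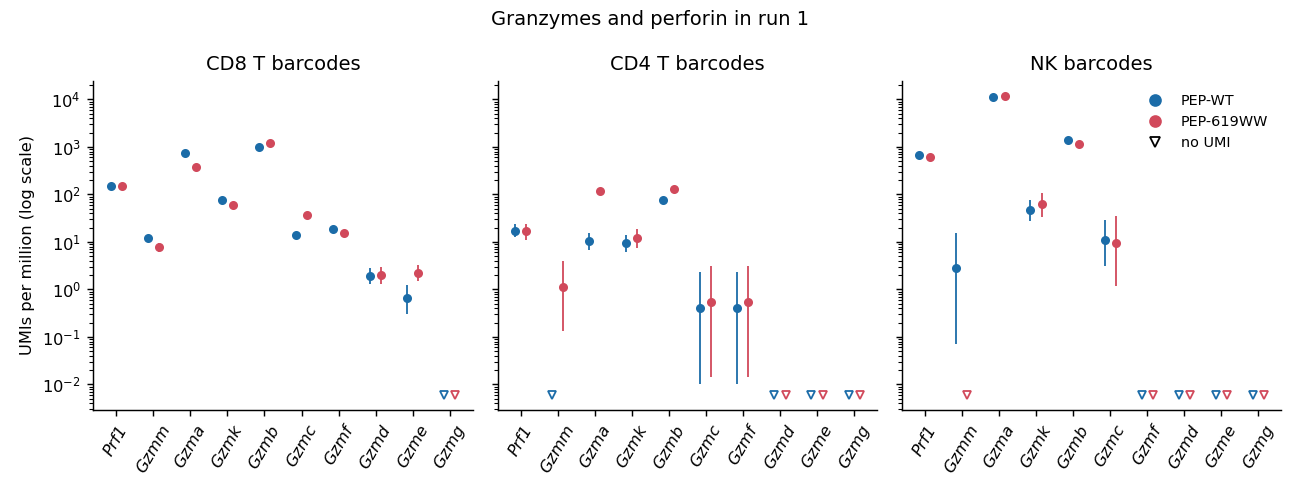
CPM (vertical axis, log scale) of the 10 members in the CD8 T, CD4 T and NK barcodes of run 1, PEP-WT in blue and PEP-619WW in red, with exact Poisson 95% intervals. Open triangles at the foot mark a member with no UMI; *Gzma* is at 11441 and 11816 CPM in NK barcodes and at most 758 CPM in both T gates.

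In CD4 T barcodes the members were rare in run 1, and 2 had at least 100 UMIs, *Gzmb* and *Gzma*. Both were higher in PEP-619WW, but *Gzma* reached 100 UMIs only through that library. Of the 5138 genes tested, 6.70% were higher and 6.71% lower, and the count of members is not read against these shares. *Gzmb* gave 181 UMIs in 31 of 304 PEP-WT barcodes and 234 UMIs in 39 of 216 PEP-619WW barcodes, or 74.7 and 129 CPM, a log2 ratio of 0.79 (0.51 to 1.08). Its share of barcodes was 10.2% and 18.1%, or 6.43% and 12.1% after thinning, above the 2.34% and 7.03% of B barcodes. The log2 ratio of the *Gzmb* level was 0.54 after thinning, within the fold. *Gzma* gave 25 UMIs in 13 PEP-WT barcodes and 210 UMIs in 11 PEP-619WW barcodes, or 10.3 and 116 CPM, a log2 ratio of 3.49 (2.89 to 4.15). In PEP-619WW 2 barcodes held 95.2% of these UMIs, and without the top barcode of each library the ratio rested on fewer than 100 UMIs, at 2.23. The shares with a *Gzma* UMI, 4.28% (2.30% to 7.20%) and 5.09% (2.57% to 8.93%), overlapped. Both intervals hold the *Gzma* share of the library's myeloid barcodes given above. That of PEP-619WW also holds the share of its B barcodes, and that of PEP-WT lies above it.

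The other members were near or at the floor in CD4 T barcodes. *Prf1* gave 42 and 30 UMIs and *Gzmk* 23 and 22. *Gzmc* and *Gzmf* gave 1 UMI in each library, and *Gzmm* 0 in PEP-WT and 2 in PEP-619WW. *Gzmd*, *Gzme* and *Gzmg* had no UMI, and a count of 0, read as up to 3 counts among the UMIs of the gate, allows up to 1.24 CPM in PEP-WT and 1.66 CPM in PEP-619WW.

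The NK gate had the highest *Gzma* level of the 3 gates in run 1. *Gzma* gave 4102 UMIs in 77 PEP-WT barcodes and 2470 in 37 PEP-619WW barcodes, or 11441 CPM (11094 to 11796) and 11816 CPM (11355 to 12291), a log2 ratio of 0.05 (-0.03 to 0.12). *Prf1* was at 667 and 608 CPM (239 and 127 UMIs), a log2 ratio of -0.13 (-0.46 to 0.18). *Gzmb* was at 1397 and 1158 CPM (501 and 242 UMIs), a log2 ratio of -0.27 (-0.50 to -0.05). None of these 3 members passed the fold, where 5.66% of the 724 genes tested were higher and 11.6% lower. At least 10 *Gzma* UMIs were found in 53 PEP-WT (68.8%) and 28 PEP-619WW barcodes (75.7%). For *Gzmb*, 1 PEP-619WW barcode held 72 of the 242 UMIs (29.8%). Among the 41 and 19 NK barcodes with no other-type UMI, *Gzmb* was at 2316 and 1016 CPM, a log2 ratio of -1.19 (-1.56 to -0.83), and among the 36 and 18 with one the sign turned, to 0.73 (0.40 to 1.05). *Gzmk* gave 17 and 13 UMIs, *Gzmc* 4 and 2, *Gzmm* 1 and 0, and the 4 remaining cluster genes none.

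**Figure D3:**
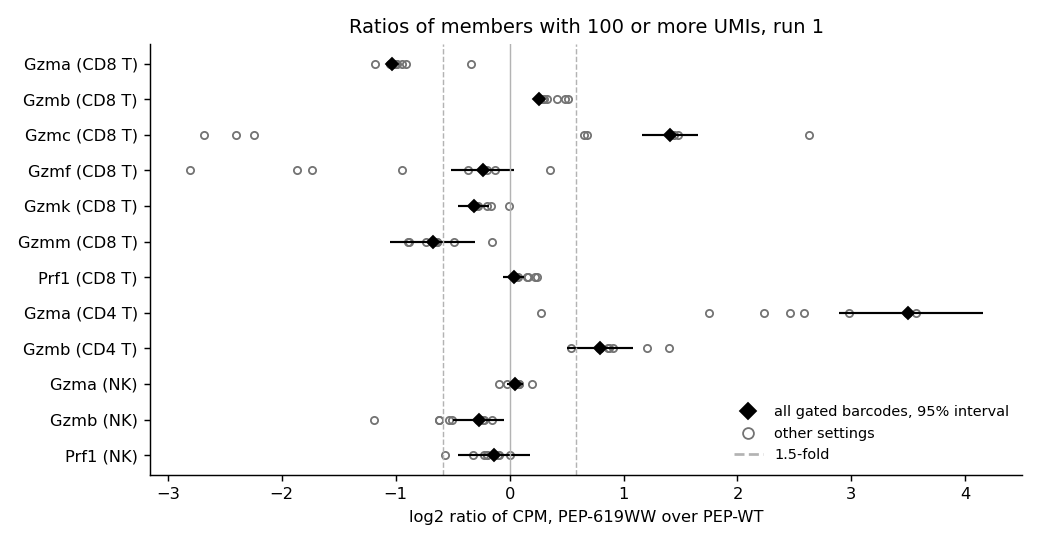
Log2 ratio of CPM, PEP-619WW over PEP-WT (horizontal axis), of each member with 100 or more UMIs in a gate of run 1: black diamonds with counting intervals for all gated barcodes, open circles for the same ratio under each other setting tried, and dashed lines at 1.5-fold. *Gzmc* in CD8 T barcodes spans -2.68 to 2.62 over the settings, whereas *Prf1* in CD8 T barcodes spans 0.04 to 0.24.

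Run 2 of PEP-619WW had more NK barcodes, and there the cluster genes were counted in numbers that run 1 did not have. Its gates held 394 CD8 T, 387 CD4 T and 466 NK barcodes. In the NK gate *Gzma* was at 4547 CPM (9715 UMIs), *Gzmb* at 821 CPM (1755 UMIs) and *Prf1* at 778 CPM (1663 UMIs), and *Gzma* was found in 80.0% of barcodes, 73.9% after thinning. *Gzmc* was at 2047 CPM (1987 to 2108), with 4373 UMIs in 80 of the 466 barcodes. Of the *Gzma* UMIs of this library 63.0% lay in NK barcodes and 2.88% in CD8 T barcodes, which is the reverse order of run 1. These shares depend on gate size, and the PEP-619WW gates of run 1 held 953 CD8 T and 37 NK barcodes. By level the order was the same in both runs of PEP-619WW. *Gzma* was at 11816 CPM in NK and 369.7 CPM in CD8 T barcodes of run 1, and at 4547 and 143 CPM in run 2.

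The other cluster genes of these NK barcodes were confined to fewer barcodes still. *Gzmd* gave 515 UMIs in 13 barcodes, *Gzme* 242 UMIs in 13, and *Gzmg* 121 UMIs in 2 barcodes, with 75 and 46. *Gzmg* had 1 UMI in the CD8 T gate of this library. *Gzmf* had 73.6% of its 72 UMIs in CD8 T and 20.8% in NK barcodes, but in 4 barcodes of each gate. In the CD8 T gate 1 barcode held 37 of its 53 UMIs, and in the NK gate 1 barcode held 10 of its 15. *Gzmk* was mostly a CD8 T gene, with 66.6% of its 482 UMIs there and 3.53% in NK barcodes.

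At least 10 UMIs of *Gzmc* to *Gzmg* were found in 38 of the 466 NK barcodes (8.15%, 5.84% to 11.02%), which held 97.3% of the 5266 UMIs of the 5 genes in the gate. Of the 38, 34 held *Prf1*, 30 *Gzmb*, 20 *Gzma* and 18 *Mki67*, and 15 held more than 1 of the 5 genes. Their median depth was 8864 UMIs against 2930.5 in the other NK barcodes, and 21 of the 38 held an other-type UMI. Within these barcodes *Gzma* was at 2817 CPM against 4967 CPM in the others, *Gzmb* at 1857 against 570.5 CPM, and *Prf1* at 1324 against 646 CPM. The barcode with most *Gzmc*, of 16113 UMIs in all, held 660 *Gzmc*, 17 *Prf1*, 4 *Gzmb*, 2 *Gzme* and no *Gzma* UMIs. A barcode of 29126 UMIs held 427 *Gzmc*, 243 *Gzmd*, 124 *Gzme*, 75 *Gzmg* and 58 *Gzmb* UMIs, also with no *Gzma*. Summed over the 38 barcodes, which were chosen for their cluster genes, *Gzmb* and *Prf1* were thus higher and *Gzma* lower than in the others, but single barcodes differed: 8 held no *Gzmb*, and 1 held 221 *Gzmb* UMIs.

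The T gates of run 2 PEP-619WW were lower in *Gzma* and *Gzmb* than its NK gate. In CD8 T barcodes *Gzma* was at 143 CPM, *Gzmb* at 442 CPM, *Prf1* at 166 CPM and *Gzmk* at 104 CPM. The cluster genes were again in single barcodes: 3 of 394 held at least 10 of their UMIs and 97.4% of the gate's 571, with *Gzmb*, *Prf1* and *Mki67* in all 3 and *Gzma* in none. In CD4 T barcodes *Gzmb* was at 196 CPM, in 116 of 387 barcodes (29.97%), *Gzma* at 86.5 CPM with 4 of 387 barcodes holding 89.4% of its UMIs, and *Prf1* at 16.3 CPM. The few gated barcodes of run 2 PEP-WT are given without comparison. Its 28 CD8 T barcodes held 285 *Gzmb*, 160 *Prf1*, 55 *Gzmc*, 36 *Gzmk* and 1 *Gzma* UMIs, and 1 of its 2 NK barcodes held 545 *Gzmc*, 369 *Gzmd*, 123 *Gzme*, 33 *Gzmb*, 16 *Prf1* and 5 *Gzma* UMIs.

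In the same barcode, *Gzma* was seldom found without *Gzmb* in CD8 T barcodes of run 1. In PEP-WT 32.5% of barcodes held both (30.04% to 34.9%), and in PEP-619WW 29.1% (26.2% to 32.1%). *Gzma* without *Gzmb* made up 2.08% and 1.68%. *Gzmb* without *Gzma* made up 33.7% (31.3% to 36.2%) and 57.6% (54.4% to 60.8%), and neither was found in 31.8% (29.4% to 34.2%) and 11.6% (9.68% to 13.9%). The intervals of the genotypes were apart for *Gzmb* alone and for neither, and overlapped for both and for *Gzma* alone. Without barcodes with an other-type UMI the order for both turned, to 29.5% and 33.8%. After thinning to 2000 UMIs (1396 and 922 barcodes, 43 and 31 shallower ones left out) both were found in 21.3% and 17.8%, *Gzmb* alone in 34.1% and 54.1%, and neither in 40.9% and 26.1%. All 3 of *Gzma*, *Gzmb* and *Prf1* were found in 22.9% and 23.3% of barcodes.

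Detection of 1 member went with detection of the others, also at equal depth. Of the CD8 T barcodes with *Gzma*, 94.0% in PEP-WT and 94.5% in PEP-619WW had *Gzmb*, against 51.5% and 83.2% of those without. Thinned, these shares were 85.4% and 90.1% against 45.5% and 67.4%. *Prf1* was found in 35.8% and 35.0% of the thinned barcodes with *Gzmb*, against 8.20% and 12.7% of those without. *Gzmk* was found in 21.3% and 18.6% of the thinned barcodes with *Gzmb*, against 6.75% and 10.0% of those without. Read the other way the share was lower: 38.5% and 24.7% of the thinned *Gzmb* barcodes held *Gzma*.

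NK barcodes were divided in another way, with few that held *Gzmb* alone, and *Gzma* alone was frequent only in run 2 PEP-619WW. In run 1 both *Gzma* and *Gzmb* were found in 67.5% (55.9% to 77.8%) of the NK barcodes in PEP-WT and 78.4% (61.8% to 90.2%) in PEP-619WW. *Gzmb* alone was found in 2 of 77 and 1 of 37, *Gzma* alone in 4 and 2, and neither in 19 and 5. In run 2 PEP-619WW, 46.6% of the 466 NK barcodes held both, 33.5% *Gzma* alone (34.4% thinned) and 6.22% *Gzmb* alone. The CD8 T barcodes of the same library held both in 7.36%, *Gzma* alone in 3.81% and *Gzmb* alone in 30.5%. In CD4 T barcodes neither was found in 86.2% and 78.7% in run 1 and in 68.2% in run 2 PEP-619WW. *Gzmb* alone was found in 9.54% and 16.2% in run 1 and in 27.1% in run 2 PEP-619WW, where both were found in 2.84%.

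**Figure D4:**
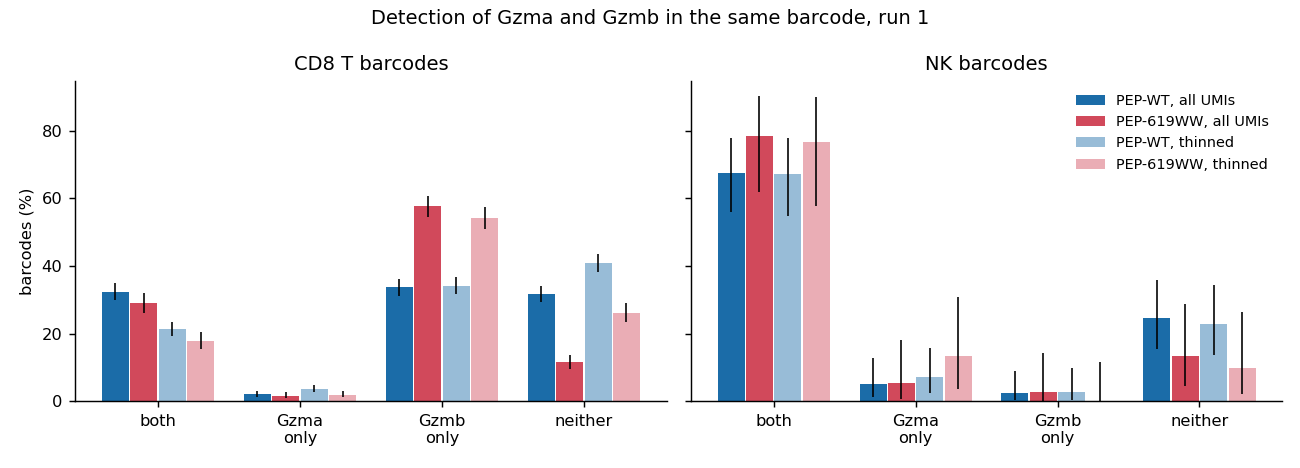
Percent of barcodes (vertical axis) with both *Gzma* and *Gzmb*, either alone, or neither in the CD8 T and NK gates of run 1, PEP-WT in blue and PEP-619WW in red, dark for all UMIs and pale after thinning to 2000 UMIs, with exact binomial 95% intervals. *Gzmb* alone is at 33.7% and 57.6% of CD8 T barcodes and at or below 2.86% of NK barcodes.

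Genes of T cell states divided the CD8 T barcodes with different *Gzma* and *Gzmb* levels; these values are from barcodes thinned to 2000 UMIs. *Tcf7*, a factor of naive and memory-like T cells, marked barcodes low in both. In PEP-WT *Gzma* was at 103 CPM in the 290 barcodes with *Tcf7* and 1478 CPM in the 1106 without, a log2 ratio of -3.84 (-4.23 to -3.47), and *Gzmb* was at 162 and 1343 CPM, a log2 ratio of -3.05 (-3.36 to -2.75). In PEP-619WW, with 68 *Tcf7* barcodes, *Gzma* was at 22.1 and 668 CPM and *Gzmb* at 324 and 1636 CPM. At this depth *Tcf7* itself was found in 20.8% (PEP-WT) and 7.38% (PEP-619WW) of barcodes.

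*Cx3cr1* and *Klrg1*, genes of terminally differentiated effector cells, marked the barcodes high in *Gzma*. In PEP-WT *Gzma* was at 5277 CPM with *Cx3cr1* and 667 CPM without, a log2 ratio of 2.98 (2.88 to 3.08), and at 4004 and 896 CPM for *Klrg1*. In PEP-619WW the *Gzma* levels were 2219 and 435 CPM for *Cx3cr1*, a log2 ratio of 2.35 (2.18 to 2.53), and 2520 and 452 CPM for *Klrg1*. *Gzmb* was divided less by the same genes, with log2 ratios of 0.56 and 0.41 for *Cx3cr1* and of 0.76 and 0.65 for *Klrg1*. *Cx3cr1* was found in 11.4% and 10.4% of barcodes and *Klrg1* in 9.53% and 8.13%. *Gzma* was thus lower in PEP-619WW both in the barcodes with *Cx3cr1* and in those without.

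*Cxcr6*, a chemokine receptor of tissue-homing T cells, and *Ifng*, the gene of interferon gamma, marked barcodes higher in *Gzmb* and not in *Gzma*. For *Cxcr6* in PEP-619WW the *Gzmb* difference was within 1.5-fold. For *Cxcr6*, *Gzmb* was at 1827 and 916 CPM in PEP-WT and at 1779 and 1451 CPM in PEP-619WW with and without a UMI, whereas *Gzma* was at 1142 and 1205 CPM in PEP-WT and at 294 and 740.0 CPM in PEP-619WW. For *Ifng*, *Gzmb* was at 1922 and 910.4 CPM and at 2159 and 1337 CPM, and *Gzma* at 969 and 1243 CPM and at 414 and 688 CPM. *Prf1* followed *Gzmb*, at 324 and 141 CPM for *Ifng* in PEP-WT and 295 and 178 CPM in PEP-619WW. For *Mki67* the libraries went apart: *Gzma* was at 1554 and 1092 CPM with and without it in PEP-WT, and at 374 and 686 CPM in PEP-619WW.

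**Figure D5:**
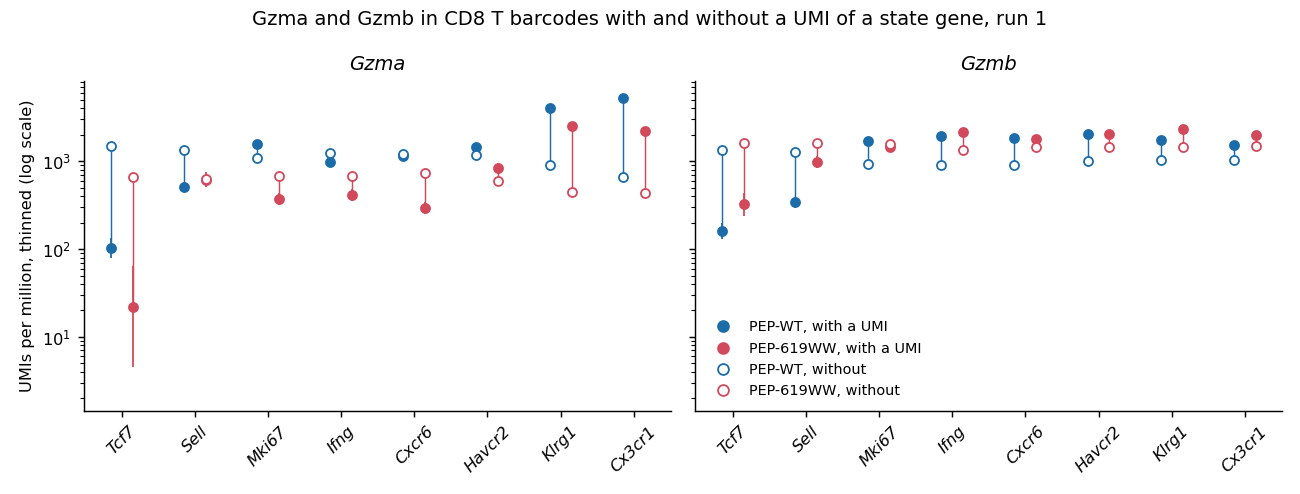
*Gzma* (left) and *Gzmb* (right) in CPM (vertical axis, log scale) in CD8 T barcodes of run 1 thinned to 2000 UMIs, with (filled) and without (open) a UMI of the state gene on the horizontal axis, PEP-WT in blue and PEP-619WW in red, with exact Poisson 95% intervals. *Gzma* is at 5277 CPM with *Cx3cr1* and 103 CPM with *Tcf7* in PEP-WT, a wider range than that of *Gzmb*.

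In the other gates the state genes divided the members as follows. In CD4 T barcodes of run 1 *Gzmb* was at 1265 CPM in the 17 PEP-WT barcodes with *Cxcr6* and 22.8 CPM in the 263 without, and at 969 and 75.8 CPM in PEP-619WW. In CD4 T barcodes of run 2 PEP-619WW, *Gzmb* was at 630.1 CPM in the 73 barcodes with *Foxp3*, the factor of regulatory T cells, and 144 CPM in the 267 without, a log2 ratio of 2.13. In NK barcodes of run 2 PEP-619WW, *Gzma* was at 3631 CPM with *Xcl1*, a chemokine gene, and 6940 CPM without, at 2672 and 5703 CPM for the integrin gene *Itga1*, and at 7578 and 4788 CPM for *Itgam*, an integrin gene of mature NK cells. *Gzma* was thus lower in NK barcodes with *Itga1* and higher in those with *Itgam*.

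The genes whose levels followed the members most closely over CD8 T barcodes of run 1 were ranked by the mean of Pearson's r in both libraries, over 8013 genes and 1439 and 953 barcodes. These barcodes share libraries and differ in depth, and the values are descriptions. For *Gzma* the 5 nearest were *Klrg1* (0.38), *Ccl5* (0.38), *Cx3cr1* (0.35), *Gzmb* (0.34) and *Zeb2* (0.29). For *Gzmb* they were *Ccl5* (0.61), *Tmsb4x* (0.59), *Lgals1* (0.57), *Nkg7* (0.55) and *S100a6* (0.54). *Gzmb* led for *Prf1* (0.52), followed by *Nkg7* (0.39), *Ccl5* (0.38), *Tmsb4x* (0.35) and *Lgals1* (0.35). For *Gzmk* they were *S100a10* (0.33), *Gzmb* (0.31), *Tmsb4x* (0.31), *Ccl5* (0.31) and *Nkg7* (0.28). *Ccl5*, a chemokine gene, was in all 4 lists, and the effector genes *Klrg1*, *Cx3cr1* and *Zeb2* only in that of *Gzma*.

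Over the 77 and 37 NK barcodes, with 230 genes compared, *Gzma*, *Gzmb* and *Prf1* were each among the 5 nearest genes of the other two. For *Gzma* the 5 nearest were *Ccl5* (0.80), *Prf1* (0.75), *Nkg7* (0.71), *Lgals1* (0.71) and *Gzmb* (0.69). For *Gzmb* they were *Gzma* (0.69), *Nkg7* (0.61), *Ccl5* (0.61), *Prf1* (0.59) and *Fcer1g* (0.52), and for *Prf1* they were *Gzma* (0.75), *Nkg7* (0.62), *Ccl5* (0.61), *Gzmb* (0.59) and *Tyrobp* (0.56).

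A list of 30 genes that make, load, release or restrain the granule was also taken, of which 29 were matched. In CD8 T barcodes 27 had at least 100 UMIs, of which 1 was higher and 1 lower in PEP-619WW and 25 were within 1.5-fold, where 2.81% of all genes tested were higher and 3.28% lower. The median log2 ratio was -0.01 against -0.00 for all genes. *Serpinb9b*, of a family of granzyme inhibitors, was higher in PEP-619WW, at 9.66 and 17.6 CPM (134 and 221 UMIs), a log2 ratio of 0.86 (0.55 to 1.19). *Eomes*, a T-box factor of cytotoxic cells, was lower, at 40.9 and 22.3 CPM (567 and 280 UMIs), a log2 ratio of -0.88 (-1.09 to -0.67).

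In CD4 T barcodes 21 of the 29 had at least 100 UMIs, of which 3 were higher and 1 lower in PEP-619WW, where 6.70% of all genes tested were higher and 6.71% lower. The median log2 ratio was 0.27 against 0.02 for all genes. The granule protease gene *Ctsw* was at 43.3 and 87.4 CPM, the inhibitor gene *Serpinb6b* at 51.2 and 82.4 CPM and the transcriptional regulator gene *Id2* at 146 and 273 CPM. *Ctsc*, whose protease activates granzymes by trimming them, was lower, at 139.8 and 91.8 CPM. In NK barcodes 8 had at least 100 UMIs, of which 1 was higher and 1 lower, where 5.66% of all genes tested were higher and 11.6% lower. *Serpinb9*, the inhibitor of granzyme B, was higher at 156 and 239 CPM (56 and 50 UMIs), and the effector factor *Zeb2* was lower at 220.3 and 129 CPM (79 and 27 UMIs). The median log2 ratio was 0.09 against -0.14 for all genes.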

How the data were processed

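The single-cell 3′ libraries were counted by the authors against the mm10 mouse transcriptome, and the deposited values are raw UMI counts, with 32285 genes in each table and a symbol for 32158. The submitters' processing notes name Cell Ranger 6.0.0, and the study's methods name a later version. Samples were grouped by the genotype in the labels. No barcode was filtered and no doublets were removed. Counts were summed per gate and divided by the gate's total. Intervals are exact Poisson (sums), exact conditional (ratios) and exact Clopper-Pearson (shares). Thinned values draw 2000 UMIs per barcode. The ratio was tested on simulated counts with known folds. These were Poisson draws from gate sums, so the test cannot show whether the intervals hold where few barcodes carry most UMIs.

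Named genes are all 10 members, the pathway genes past 1.5-fold in run 1, and the 5 genes with the highest mean Pearson r of ln(1 + counts per 10000) with *Gzma*, *Gzmb*, *Gzmk* and *Prf1*. The members and lists were chosen with earlier results of these data known. Of the pathway list *Vamp7* was not matched. Promoters and transcripts were aligned with biotite (1.4.0), on python (3.11.15) with numpy (2.4.6), scipy (1.17.1) and matplotlib (3.10.9). Alternatives covered barcode filters, depth, scaling, gates and leading barcodes.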

Additional observations from a re-analysis of the deposited data

Results flagged for a closer look

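*Gzma* stood on opposite sides of 0 in the T gates of run 1: the log2 ratio of PEP-619WW over PEP-WT was -1.04 in CD8 T barcodes and 3.49 in CD4 T barcodes. It was singled out because the same contrast went opposite ways in the gates, and the difference between them was not tested, with 1 library per genotype. The CD4 T value rests on 2 PEP-619WW barcodes that held 95.2% of the *Gzma* UMIs, and without the 1% of barcodes of each library with the most *Gzma* UMIs it was 0.27.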

How the results depend on the processing

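The ratios of run 1 were recomputed under 7 planned settings and 2 chosen after seeing the data, which left out the barcode, or the 1% of barcodes, with the most UMIs of the member. Of 20 ratios, 5 were called and 0 kept their call in every setting, though 4 kept their sign. Without barcodes that held UMIs of other cell types, the log2 ratios were -0.34 (*Gzma*), 2.62 (*Gzmc*) and -0.15 (*Gzmm*, under 100 UMIs) in CD8 T and 2.59 (*Gzma*, under 100 UMIs) and 1.40 (*Gzmb*) in CD4 T barcodes, with 0 members lower in CD8 T, 1 higher in CD4 T and 1 lower in NK barcodes. Without barcodes of 10 or more *Mt2* UMIs *Gzmc* turned to -2.68, with 0 members higher and 4 lower in CD8 T barcodes. Thinned to 2000 UMIs, *Gzma* was at -0.94 and *Gzmc* at 0.68 in CD8 T and *Gzma* at 2.46 in CD4 T barcodes, with 1 member higher there. As a mean over barcodes, *Gzma* was at -0.91 and *Gzmc* at 0.65, and with any *Cd3* gene in the gate *Gzma* in CD4 T was at 1.75. Without the top barcode *Gzmc* turned to -2.40 and *Gzma* in CD4 T was at 2.23 (under 100 UMIs), with 0 members higher and 4 lower in CD8 T. Without the top 1%, *Gzma* was at -1.18 and *Gzmc* turned to -2.24 in CD8 T (under 100 UMIs), and *Gzma* was at 0.27 (under 100 UMIs) and *Gzmb* at 1.21 in CD4 T, with 0 higher and 1 lower in CD8 T. Both settings gave 1 member higher in CD4 T and 1 lower in NK barcodes. The share of CD8 T barcodes with both *Gzma* and *Gzmb* was 29.5% and 33.8% in PEP-WT and PEP-619WW without other-type UMIs, where the order turned, 21.3% and 17.8% thinned, and 25.2% and 21.1% at 2 UMIs of each. With a minimum of 20 UMIs, 5.95% of all genes were higher and 6.70% lower in CD8 T, 11.7% and 10.2% in CD4 T, and 13.1% and 18.4% in NK barcodes. Barcodes with UMIs of other cell types had the higher median depth in each gate of both genotypes. The causes were not tested. One library per genotype and run, and 77 and 37 NK barcodes, limit every ratio.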
